A study of Homo sapiens with 3 samples.

Results

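The region described here is the last 200 nt of human 18S ribosomal RNA, positions 1670 to 1869, in an eCLIP experiment on METTL5. Its members were all rows of the deposited rRNA table that fall on 18S within those positions, which makes 200 of the table's 7218 positions and 200 of the 1869 of 18S. The libraries were all from 293T, a human embryonic kidney line. For 2 eCLIP libraries, RNA bound to METTL5-HA was pulled down with anti-HA beads from lines that carry the tagged protein stably, and 1 Input library, without pulldown, came from cells labelled WT. All cells were crosslinked with UV light at 254 nm and 400 mJ/cm2. The labels do not say whether the METTL5-HA cells are 1 clone or a pool, and since Input came from cells with another genotype, the tag and the pulldown cannot be told apart. No library of untagged cells carried through the pulldown was among those analysed here. Input has 1 library, so it has no replicate check.

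This end of 18S holds the decoding centre of the small subunit. Helix 44 is the long hairpin that runs down the face of the subunit that meets the large one. Its base lies at the decoding site, where a pair of adenosines on its 3′ strand checks the match of codon and anticodon. METTL5, working with its partner TRMT112, places N6-methyladenosine (m6A) on adenosine 1832, at the base of that 3′ strand. Helix 45, the last hairpin, carries an acetylated cytidine made by NAT10 and a pair of dimethylated adenosines made by DIMT1. Here helix 44 was taken as positions 1700 to 1836 and helix 45 as 1838 to 1861. The 5′ strand of helix 44 stands for its first 50 nt (1700 to 1749), the 3′ strand for its last 50 nt (1787 to 1836), and the tip for the 37 nt between them. These limits come from standard numbering, and no 18S sequence was used to check them. The 18S genes are near-identical copies, so no value belongs to 1 gene.

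Each value is a depth, the number of reads that cover a position. Summed over the table, depth was 17574237 and 6930845 in eCLIP replicates 1 and 2 and 42783485 in Input. The region held 109795, 22979 and 954982 of these. Divided by a read span of 75 nt, that is about 1464, 306 and 12733 reads. Averaged over the 200 positions, eCLIP replicates 1 and 2 had depths of 549 and 115 reads, and Input 4775. Replicate 1 was 2.54 times as deep as replicate 2 over the table, 3.38 times over the rest of 18S and 4.78 times over the region, so the replicates differ in how much of 18S lay here. Input depth stopped just short of 8000 reads from 1738 to 1763, at 7912 to 7979, and also passed 7900 in shorter stretches upstream, the last of them at 1599 to 1616, 1640 and 1643. Reads of 75 nt that start on any of these can cover all of the region except 1718 to 1737 and 1838 to 1869, and the sources used here do not say whether reads beyond a limit were left out. Across the table the highest depth in any library was 7986 reads. Whether a limit moved the library totals or the replicate ratios was not tested.

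Along helix 44, eCLIP depth had a low level over most of the 5′ strand and a higher one over the tip and the first 23 nt of the 3′ strand, and then declined to the base of the helix. In replicate 1 depth rose from 119 reads at position 1688 to 392 at 1703, and then stayed between 403 and 428 from 1704 to 1734. It rose again from 519 reads at 1744 to its maximum of 1258 at 1764. From 1787 to 1809, on the 3′ strand, it lay between 1005 and 1033. Replicate 2 had the same order at a lower depth, with 23 reads at 1688, 115 at 1703, 119 to 134 from 1704 to 1734, 159 at 1744 and a maximum of 281 at 1763. Its level from 1787 to 1809 was 167 to 180 reads.

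The plot of depth along the region shows both levels and the decline. At its maximum the region stood above 94.2% of all 18S positions in replicate 1 and above 94.0% in replicate 2. The Input course differed. It rose from 4794 reads at 1688 to 6826 at 1703 with a first peak of 7566 at 1694, reached the plateau near 8000 at 1738, and was already down to 3655 at 1809.

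**Figure D1:**
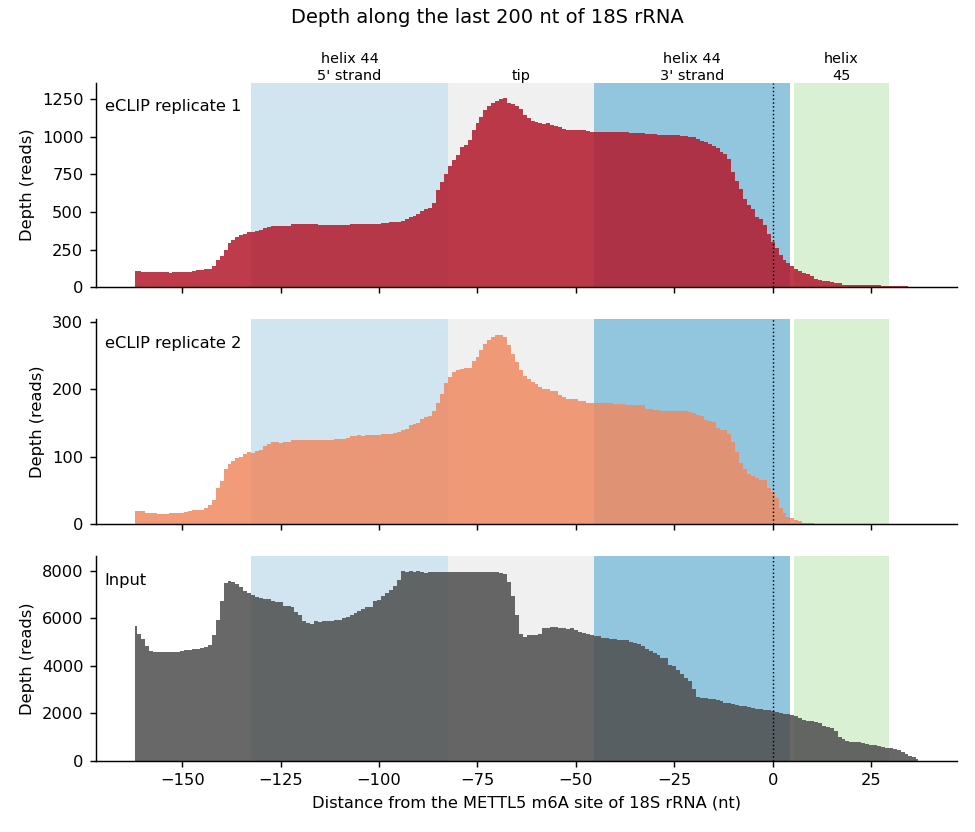
Depth in reads (y axis, linear, a scale of its own in each panel) at each position of the last 200 nt of 18S, against the distance from the m6A site in nt (x axis), in eCLIP replicate 1, eCLIP replicate 2 and Input. Shading marks the strands and tip of helix 44 and helix 45, and the dotted line the m6A site. Both eCLIP libraries have a low level over the 5′ strand, maxima of 1258 and 281 reads in the tip, and a decline in the second part of the 3′ strand, and Input is level just under 8000 reads over the end of the 5′ strand and the tip.

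The strands of helix 44 were compared within each library, which needs no scaling between libraries. In replicate 1 the 5′ strand had a mean depth of 445 reads and the 3′ strand 829. In replicate 2 the values were 134 and 135 reads. In Input they were 6811 and 3488 reads. The 3′ strand was therefore 1.86 times as deep as the 5′ strand in replicate 1, 1.01 times in replicate 2 and 0.512 times in Input. On the log2 scale the ratio of 3′ to 5′ strand exceeded that of Input by 1.86 and 0.97 in replicates 1 and 2, a mean of 1.42 ± 0.629 (SD, n = 2). Both replicates lay above Input, but with 2 libraries against 1 an exact one-sided permutation test cannot give a p below 0.333, so the difference was not tested. Reads of 75 nt that start where Input exceeds 7900 can cover all positions of the 3′ strand and, of the 5′ strand, all but 1718 to 1737. If such reads went unrecorded, the Input values of both strands are too low, and which way this moves the difference between eCLIP and Input is not known. The ratios within the eCLIP libraries do not depend on Input.

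Helix 45 had little depth in eCLIP. Its mean depth was 38.5 reads in replicate 1 and 0.667 in replicate 2, against 1131 in Input. The tail after it, 1862 to 1869, had 4.63 reads per position in replicate 1, 0 in replicate 2 and 312 in Input. Input depth in helix 45 and the tail cannot include reads that start on the plateau, so these depths are free of it. The TMM factors used next were computed over all windows, those on the plateau included. On the TMM scale helix 45 stood at -3.33 (replicate 1) and -7.42 (replicate 2) relative to Input in log2. The replicate 2 value rests on depths of 6 reads or fewer. A count of 0 allows up to 3 reads, and set against that floor the tail was at least 10.5-fold lower than Input in replicate 2.

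The course of depth follows from where reads start and end. Within the region, steps up in depth were best matched by steps down 75 nt later in all 3 libraries, among distances from 20 to 150 nt (correlation across 126 positions 0.945, 0.951 and 0.976 in replicate 1, replicate 2 and Input). Neighbouring positions share reads, so this is a description. A read of 75 nt can start no later than position 1795, and from there to 1869 depth rose at 0 of 74 steps in each library. Each fall in that stretch is thus the number of reads that end there, and places the start of each read 74 nt earlier. Starts from 1721 to 1795 came directly from these ends, and starts from 1646 to 1720 from the ends they account for further upstream. In the latter stretch the rebuilt starts were negative at 9, 4 and 1 of 75 positions, by sums of 14, 6 and 3 reads against positive sums of 428, 131 and 5904. The sources used here do not say whether the start or the end of a read marks the crosslinked base.

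In both eCLIP libraries most reads started in 2 short stretches, which were delimited after their values were seen. The first, 1689 to 1703, lies mostly just before the 5′ strand and ends in the first bases of that strand. It held 294 of the 1414 reads that started in the region in replicate 1, or 20.8% (exact 95% binomial interval 18.7% to 23.0%). In replicate 2 it held 95 of 299, or 31.8% (26.5% to 37.4%). In Input it held 3407 of 10445, or 32.6% (31.7% to 33.5%). The share of replicate 2 overlaps that of Input, while the interval of replicate 1 lies below it. The 10445 starts of Input include those on its plateau, and whether the plateau moved this share was not tested. Reads from this stretch end between 1763 and 1777, so they run up the 5′ strand and end in the tip.

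The second stretch, 1745 to 1763, lies where the 5′ strand passes into the tip. It held 775 read starts in replicate 1, or 54.8% (exact 95% interval 52.2% to 57.4%), and 134 in replicate 2, or 44.8% (39.1% to 50.6%). Input had 660 there, or 6.32% (5.86% to 6.80%). Reads from this stretch end between 1819 and 1837, so they cover the tip and the 3′ strand and end around the decoding adenosines and the m6A site. It is the larger group in both eCLIP libraries, and it had 2 crests. From 1746 to 1753 there were 414 starts in replicate 1 and 71 in replicate 2, at 1754 and 1755 together 52 and 3, and from 1756 to 1763 296 and 59. Across the 75 positions from 1721 to 1795 the starts of the 2 eCLIP libraries had a Pearson correlation of 0.871 and a Spearman correlation of 0.808, given as a description across positions.

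Between and after these stretches eCLIP reads seldom started. From 1704 to 1744 there were 183 starts in replicate 1 and 52 in replicate 2, and 3864 in Input. From 1764 to 1795 there were 120, 6 and 1873. The Input values have a break of their own. Input had 297 starts at 1737 and 368 at 1738, where its depth reached 7979, and then 17 at 1739. From 1738 to 1763 depth stayed on the plateau, and the ends that belong to starts there numbered 45.1 per nt, against 120 per nt for starts from 1721 to 1737 and 58.5 per nt for starts after 1763. The second eCLIP stretch lies within that plateau. Its low share in Input moved with the plateau, and whether the plateau lowered it was not tested. All intervals cover counting error only, and duplicate reads, if kept, would leave them too tight.

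**Figure D2:**
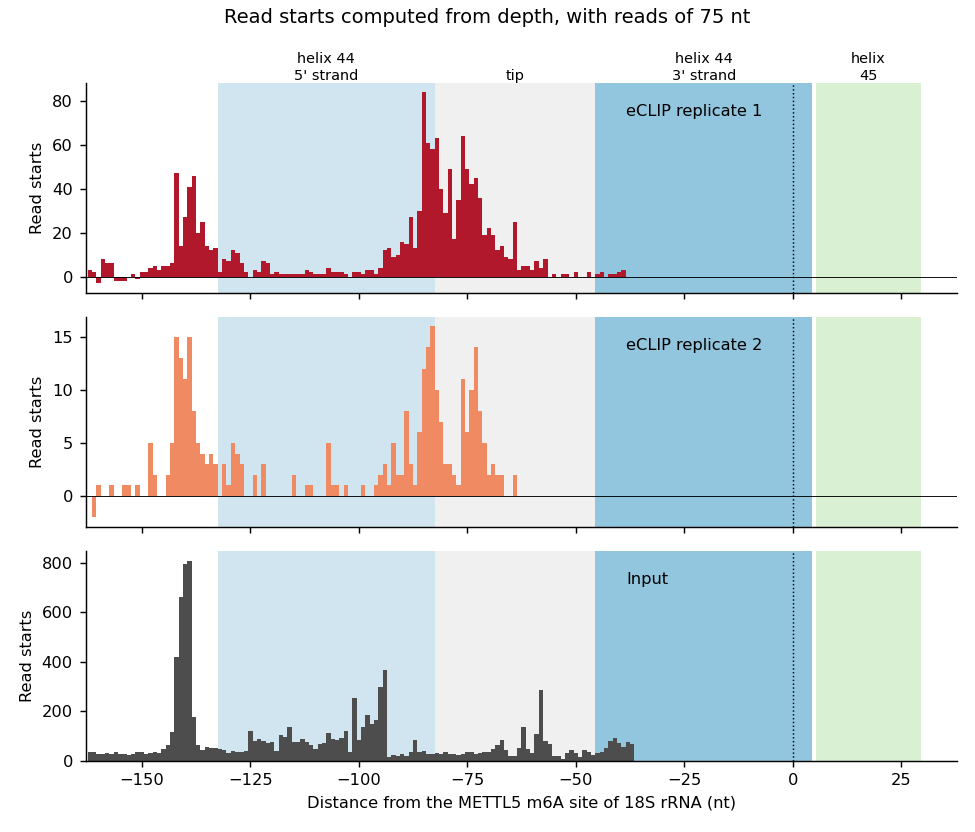
Read starts per position (y axis, linear, a scale of its own in each panel), computed from the deposited depths with reads of 75 nt, against the distance from the m6A site in nt (x axis), in the 3 libraries. Starts of eCLIP reads gather in a stretch that lies mostly just before the 5′ strand. A stretch with more starts lies between the 5′ strand and the tip, with 775 and 134 reads in replicates 1 and 2. Input starts drop from 368 to 17 at the position where its plateau begins.

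The largest single steps up lay in those same stretches. In replicate 1 the 5 largest steps up were at 1747, 1756, 1750, 1748 and 1749, by 87 to 52 reads. In replicate 2 they were at 1691, 1693, 1749, 1748 and 1692, by 18 to 11 reads. The step at 1747 in replicate 2 was also 11 reads, so 3 positions, 1747, 1748 and 1749, were among the largest in both libraries with ties kept, and 2 without. At 1691 and 1693 Input rose too, by 639 and 744 reads, while 1747 to 1749 lie on its plateau, where its steps cannot be compared. The 5 largest steps down of replicate 1 lay between 1822 and 1831, by 84 to 58 reads. In replicate 2 the falls of 16 and 14 reads at 1824 and 1823 were among the 5 largest of replicate 1 as well, and another of 14 reads was at 1834. At 1765, 1766 and 1768 replicate 2 fell by 13 reads each, where Input changed by -337, -618 and -790 reads.

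In eCLIP, reads over the 3′ strand ended mostly around the decoding adenosines and the methylated base. With a span of 75 nt these ends restate the starts given above and are no separate result. Position 1795 was covered by 1029 reads in replicate 1, 177 in replicate 2 and 5089 in Input, and all of these end between there and 1869. eCLIP depth was down to 0.5 of that at 1795 by position 1828 in replicate 1 and 1825 in replicate 2, 4 and 7 nt before the m6A site, and to 0.25 by 1834 and 1833. Input reached those levels at 1819 and 1848. The middle 50% of eCLIP read ends fell within 12 nt (1821 to 1833) and 11 nt (1821 to 1832), against 39 nt (1808 to 1847) in Input. The median end was 1827 in replicate 1, 1824 in replicate 2 and 1818 in Input. Before 1832 lay 726 of 1029, 129 of 177 and 3002 of 5089 ends. The range from 10 nt before to 10 nt after the m6A site was 1822 to 1842. In it lay the ends of 716 of 1029 reads in replicate 1, or 69.6% (exact 95% interval 66.7% to 72.4%), and of 121 of 177 in replicate 2, or 68.4% (61.0% to 75.1%). In Input 731 of 5089 reads ended there, or 14.4% (13.4% to 15.4%). The most frequent ends were 1821 in replicate 1, with 84 reads, 1823 in replicate 2, with 16, and 1812 in Input, with 368, which is the end of the reads that start at 1738. These shares of Input, too, include ends of reads that start on the plateau.

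No read of the span used here can start after 1795, so from there depth can only stay level or fall. The order of the modified and decoding bases by depth was therefore fixed in advance in every library, Input included. Only the size of the shares can differ between libraries. The decoding adenosines 1824 and 1825 had 649 and 586 reads in replicate 1, 91 and 81 in replicate 2, and 2322 and 2289 in Input. Of the reads over 1795, 63.1% crossed 1824 in replicate 1 (exact 95% interval 60.04% to 66.03%), 51.4% in replicate 2 (43.8% to 59.0%) and 45.6% in Input (44.3% to 47.0%), so there the interval of replicate 1 lay above that of Input and the interval of replicate 2 overlapped it. At 1825 the shares were 56.9%, 45.8% and 44.98%. Adenosine 1832 was crossed by 29.4% of the reads over 1795 in replicate 1 (exact 95% interval 26.7% to 32.3%), by 27.1% in replicate 2 (20.7% to 34.3%) and by 41.0% in Input (39.7% to 42.4%), so both eCLIP intervals lay below that of Input. Cytidine 1842, the NAT10 site, was crossed by 7.48% in replicate 1 (5.95% to 9.26%), by 2 of 177 reads or 1.13% in replicate 2 (0.137% to 4.02%) and by 32.7% in Input (31.4% to 34.0%). At adenosines 1850 and 1851, the DIMT1 pair, 17 reads each remained in replicate 1, or 1.65% (0.965% to 2.63%). Replicate 2 had 0 of 177 at both, which allows a share of up to 1.69% as 3 reads of 177 (exact upper limit 2.06%), and Input had 17.7% and 16.4%. The last base was reached by 0 eCLIP reads in either library and by 66 in Input. In Input the depth at 1795 includes reads that start on its plateau, and these end between 1812 and 1837. Such ends numbered 45.1 per nt, against 120 per nt for reads that start before the plateau. Whether the plateau moved the Input shares given here was not tested.

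**Figure D3:**
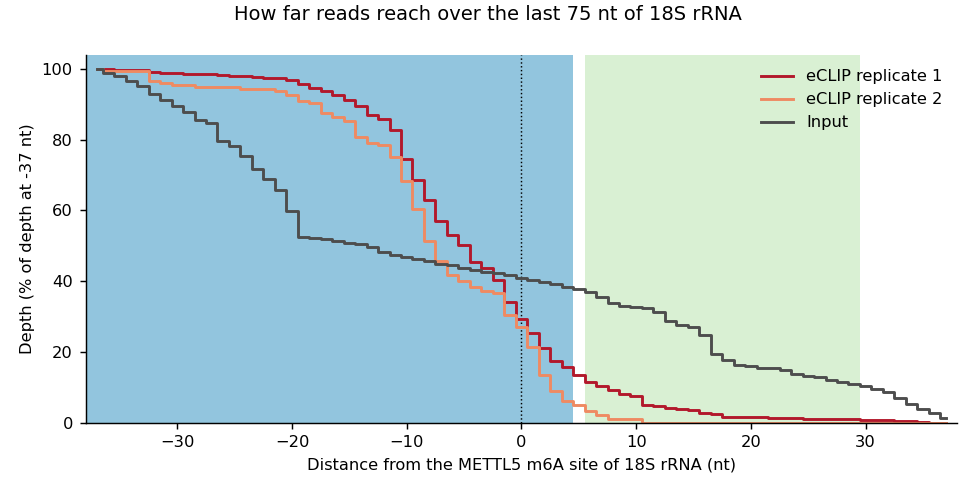
Depth at each of the last 75 positions of 18S as a percentage of the depth at the first of them, 37 nt before the m6A site (y axis), against the distance from the m6A site in nt (x axis), in the 3 libraries. Under a read span of 75 nt the curve is the share of reads that reach a position. In Input these include reads that start on its plateau, and whether this moved its curve was not tested. Both eCLIP curves stay near the top until about 20 nt before the site and drop steeply around it, to 29.4% and 27.1% at the site, while Input falls earlier and then declines slowly from 19 nt before the site to the last base.

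Set against Input base by base, without scaling, eCLIP depth peaked inside the 3′ strand and not at the m6A site. In replicate 1 it was 36.8% of Input depth at position 1813, 19 nt before the site, with 985 reads against 2677. In replicate 2 it was 6.02% at 1814, with 160 reads against 2660. At adenosine 1832 the values were 14.5% and 2.30%. A smaller crest lay in the tip at 1768, at 22.1% and 4.26%, where Input had dropped to 5357 reads. The values were 1.87% at position 1670 in replicate 1 and 0.327% at 1676 in replicate 2, the lowest before helix 44. Over the rest of 18S the medians were 4.72% and 1.25%, and the highest values, both at 1315, were 24.3% and 10.9%. In replicate 1, 20 positions of the region, 1806 to 1825, stood above that highest value, and in replicate 2 none did. The peak coincides with a fall of Input by 368 reads at 1813, at the point from which reads starting on its plateau take over. If Input lost reads there, the peak is too high, and this was not tested.

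**Figure D4:**
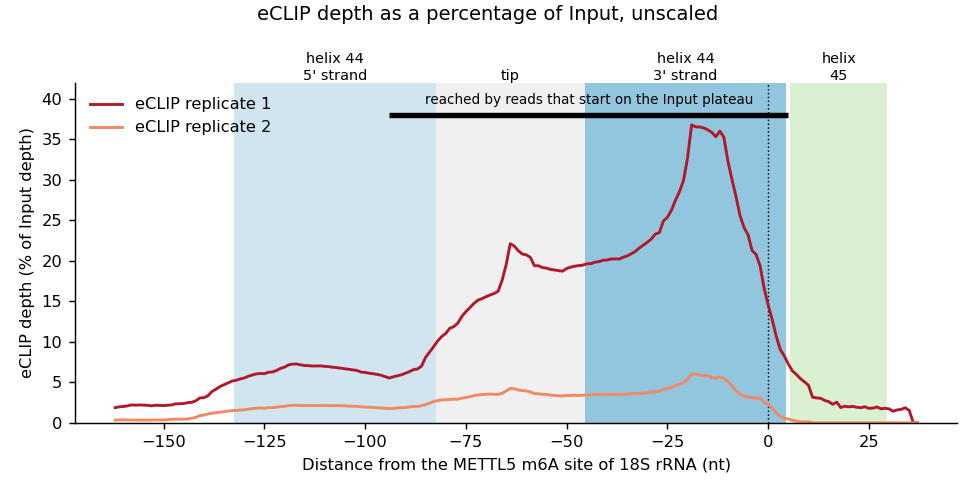
eCLIP depth as a percentage of Input depth at the same position, unscaled (y axis, linear), against the distance from the m6A site in nt (x axis), in eCLIP replicates 1 and 2. The bar marks the positions that reads of 75 nt starting on the Input plateau at 1738 to 1763 can reach. Both curves have their maximum under that bar, 19 and 18 nt before the m6A site, at 36.8% and 6.02%, with a smaller crest in the tip, and decline through helix 45.

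The difference between eCLIP and Input was tested in windows of 25 nt counted back from the last base of each rRNA, 290 windows in all, of which 8 tile the region. With edgeR's quasi-likelihood test, TMM scaling and Benjamini-Hochberg adjustment over all windows, 7 of the 8 were lower in eCLIP at an adjusted p under 0.05 and 0 were higher, also at an unadjusted p under 0.05. Over all rRNAs 35.2% of windows were called lower and 6.21% higher, and on the rest of 18S 64 of 67 were called lower and 0 higher. Lower calls were thus frequent along all of 18S. The median log2 fold change was -1.96 in the region, -2.96 on the rest of 18S and -0.13 over all windows. DESeq2 called 5 of the 8 lower and 0 higher and, on the rest of 18S, 64 of 67 lower and 0 higher, against 32.8% lower and 29.3% higher over all rRNAs.

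Within the region the fold change traced an arch. Only the window 1845 to 1869 lies wholly at positions that reads starting where Input exceeds 7900 cannot reach. Whether a loss of such reads shaped the arch was not tested. The window before helix 44, 1670 to 1694, had log2 ratios to Input of -3.79 and -4.24 in replicates 1 and 2 (adjusted p = 1.62e-12, edgeR). The 5′ strand windows had -2.51 and -2.50 at 1695 to 1719 (adjusted p = 2.06e-07, edgeR) and -2.43 and -2.36 at 1720 to 1744 (adjusted p = 2.91e-07, edgeR). These 2 windows had the smallest difference between the replicates. At the passage into the tip, 1745 to 1769, the ratios were -1.37 and -1.71 (adjusted p = 0.000273, edgeR).

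Values closest to Input came on the 3′ side. Reads that start on the Input plateau can reach all positions from 1770 to 1819 and all but 7 from 1820 to 1844. Whether this brought the values closer to Input was not tested. Window 1770 to 1794 had -0.79 and -1.52 (adjusted p = 0.0225, edgeR). Window 1795 to 1819 had -0.39 and -1.23 and was the 1 window not called (adjusted p = 0.160, edgeR). Window 1820 to 1844, which holds the decoding adenosines and the m6A site, had -0.95 and -2.07 (adjusted p = 0.0430, edgeR). With library totals in place of TMM, windows 1770 to 1794 and 1820 to 1844 lost the call (adjusted p = 0.106 in both, edgeR), while the fold changes moved further from 0 (log2 -1.52 and -1.79, against -1.11 and -1.41). Both also lost it in edgeR with DESeq2's size factors (adjusted p = 0.0532 and 0.0752). Window 1770 to 1794 was not called by DESeq2 (adjusted p = 0.0980) or by edgeR with windows of 50 nt counted from the last base (adjusted p = 0.0646). Nor was 1820 to 1844 by edgeR with windows of 50 nt counted from position 1 (adjusted p = 0.0948). With windows of 10 nt, the largest adjusted p among those with their middle in 1820 to 1844 was 0.263 (edgeR), so not all of them were called. Among windows with a ratio in both replicates, the replicates differed most in the 3 from 1770 to 1844 (SD of the log2 ratios 0.51, 0.59 and 0.79). Leaving out a replicate gives the other's value only, in every window. Without replicate 1 the log2 ratios of these 3 are -1.52, -1.23 and -2.07, and without replicate 2 -0.79, -0.39 and -0.95. The last window, 1845 to 1869, with most of helix 45, had mean depths of 15.0 reads in replicate 1, 0 in replicate 2 and 706 in Input. Its log2 ratio was -4.00 in replicate 1, and in replicate 2, against the floor of 3 reads per position, it was at least 23.8-fold lower (adjusted p = 4.18e-06, edgeR). DESeq2 gave it a fitted log2 fold change of -4.85, against -4.96 in edgeR, and did not call it (adjusted p = 0.451).

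**Figure D5:**
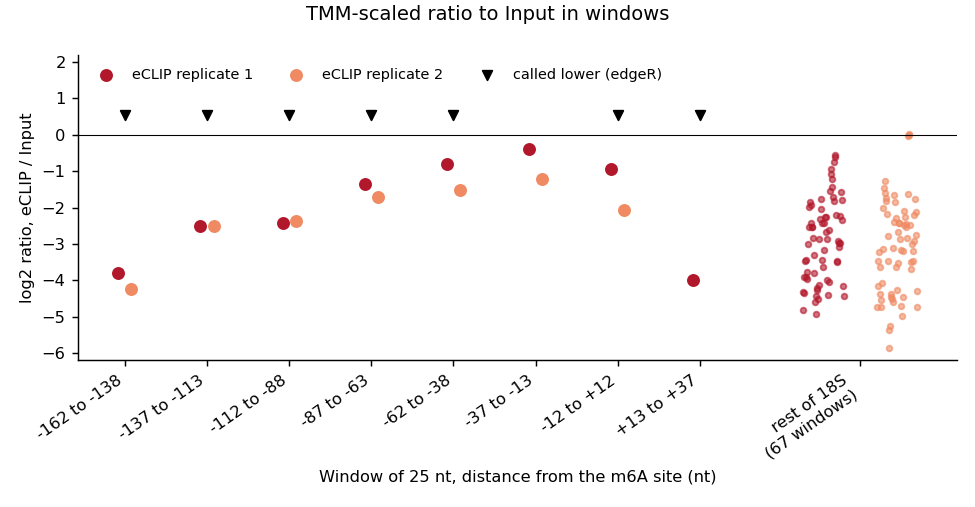
Log2 ratio of eCLIP to Input after TMM scaling (y axis) in the 8 windows of 25 nt that tile the last 200 nt of 18S (x axis, distance from the m6A site in nt), 1 point per eCLIP replicate, with the 67 windows of the rest of 18S as small points at the right. Triangles mark windows called lower by edgeR. Reads of 75 nt that start where Input exceeds 7900 can reach all positions from 1670 to 1694 and from 1745 to 1819. They cannot reach 2 positions of 1695 to 1719, 18 of 1720 to 1744, 7 of 1820 to 1844 and all of 1845 to 1869. The ratios rise from -3.79 and -4.24 in the first window to -0.39 and -1.23 in the window just before the one with the m6A site and drop again, and replicate 2 has no point in the last window, where it had 0 reads.

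With libraries scaled to their 18S total, the test asks instead how the region stands within 18S. Then 2 of the 8 windows were higher, 1770 to 1794 (log2 fold change 1.21, adjusted p = 0.00572, edgeR) and 1795 to 1819 (1.57, adjusted p = 0.000585, edgeR). All positions of these 2 windows can be covered by reads of 75 nt that start on the Input plateau. The 18S total of Input includes the plateau as well. Whether the plateau led to these higher calls was not tested. Another 2 were lower, 1670 to 1694 (-1.67, adjusted p = 0.00205, edgeR) and 1845 to 1869 (-2.65, adjusted p = 0.00661, edgeR). On this scale 69.0% of the windows of all rRNAs were called higher and 12.8% lower, and on the rest of 18S 4 of 67 were higher and 27 lower. The share of 18S depth that lay in the region was 13.6% in replicate 1 (exact 95% interval 13.0% to 14.3%, counting reads of 75 nt), 10.1% in replicate 2 (9.0% to 11.2%) and 8.23% in Input (8.09% to 8.37%), for 10.7% of the length. Relative to the rest of 18S, the region was 1.32 and 0.933 times as deep in replicates 1 and 2 and 0.748 times in Input. The log2 difference from Input was 0.82 and 0.32, a mean of 0.57 ± 0.352 (SD, n = 2). The Input depths behind its share and this difference include the plateau, and whether the plateau moved them was not tested. Among the 9 stretches of 200 nt along 18S counted back from its last base, the region ranked 2 in replicate 1 and 3 in replicate 2, from the highest, by its ratio to Input, at -1.57 and -2.07 (log2, TMM).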

How the data were processed

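The deposited table gives whole-number counts at each position of 4 rRNAs, per the file headers, and the authors deposited them without scaling. They were read as depths. STAR and hg19 are listed, per the submitters' processing notes. The sources used here do not say how reads were assigned to rRNA, whether duplicates were removed or whether depth had a limit. Columns IP1 and IP2 were taken as eCLIP replicates 1 and 2. No label names separate cultures, and p-values then reflect the spread between these libraries alone, which may be technical.

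Counts were summed in windows of 25 nt, in which a read counts once per position. edgeR 4.0.16 (R 4.3.3) fitted all 3 libraries with TMM, filterByExpr (0 of 290 windows removed) and Benjamini-Hochberg adjustment at 0.05. The fit has 1 residual degree of freedom and an infinite prior, so all windows took the dispersion trend, which neighbouring windows that share reads make too sure. Tested on simulated data (290 windows, eCLIP against Input, common dispersion 0.0923), edgeR called 100% of windows lowered 16-fold, 84.2% lowered 4-fold, 69.2% raised 4-fold and 0.976% of unchanged ones. The simulated windows shared no reads, had no plateau and were raised as often as lowered, unlike the data, so these rates need not hold here. Per-replicate ratios used a pseudocount of 1 count. DESeq2 1.42.0 was an alternative, with other scalings, windows and strand limits. Intervals are Clopper-Pearson at 95% (scipy 1.17.1). Regions named were the windows, the helix parts, the modified and decoding bases and the 5 largest steps. The region, windows and landmarks were chosen with earlier results of these data known.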

Additional observations from a re-analysis of the deposited data

How the results depend on the processing

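The count of lower windows, 7 of 8, was 5 with library totals, with DESeq2's size factors and with DESeq2's own test, 2 with the 18S total, 17 of 20 with windows of 10 nt, 3 of 4 and 4 of 5 with windows of 50 nt counted from the last base and from position 1, and 4 of 4 when only positions that reads starting where Input exceeds 7900 cannot reach were kept (1718 to 1737 and 1838 to 1869), an alternative chosen after seeing the data. The count of higher windows, 0, was 2 with the 18S total. That scaling, which by construction sets the region against 18S, moved the median of all windows to 2.19 and turned 4 windows to 0.80, 1.21, 1.57 and 0.91, and the ratio of the whole region from -1.82 to 0.51. The ratio of the region became -2.29 by library totals, -2.70 by the 28S total, -1.24 at positions with Input under 4000 and -2.57 at those 52 positions. Of 96 window values tested under alternatives, 81 kept direction and call, 11 lost the call in 5 windows and 4 turned. The region against the rest of 18S, 0.57, was 1.02 with medians and 1.11 against positions with Input under 4000. The point where eCLIP depth is down to 0.5, 1826.5 on average, was 1833.5 for 0.25. The strand difference, 1.42, moved by less than the spread between replicates with strands of 40 and 60 nt, a split at the middle and medians. With 1 replicate left out, each value is that of the other replicate: -2.07 to -1.57 for the region, 0.32 to 0.82 against the rest of 18S, 0.97 to 1.86 for the strands and 1825 to 1828 for the point of 0.5. Counts of windows could not be recomputed then, since no residual degrees of freedom are left. No paired analysis was possible because the single Input library carries no replicate number. Depth limits helix 45 in replicate 2, with 6 reads or fewer.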
